A study of Mus musculus with 11 samples.

Results

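Granulocyte colony-stimulating factor, encoded by Csf3, and 4 receptor chains of the colony-stimulating factor family, Csf3r, Csf2ra, Csf2rb and Csf2rb2, were followed in BV2 cells exposed to amino-terminal fragments of apolipoprotein E. These 5 genes are 5 of the 36529 gene rows in the count data. They were chosen by symbol, with earlier results of these data known, and Csf1 and Csf2 were left out on the measured value of 0 counts in every sample. The rise of Csf3 with each fragment is therefore given as a description with no test.

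BV2 is a transformed line of mouse microglia, labelled C57BL/6, and is 1 line rather than primary cells. In the first experiment, 3 samples received 25 µg/mL of nApoE4 1–151 for 5 h and 3 untreated samples, named ControlA, served as their controls. In the second experiment, 2 samples received 25 µg/mL of nApoE3 1–151 for 5 h and 3 untreated samples, named ControlB, served as theirs. Both fragments were purified with a histidine tag and differ in a single amino acid. The labels give PBS as the vehicle, while the study's methods give conditioned media for untreated cells. Since each experiment used 1 fragment, an effect of the fragment and one of the experiment cannot be told apart. The study speaks of independent measurements that were averaged, while the labels do not say that replicates came from separate cultures. If they did not, p-values measure only the spread between these samples, which may be technical.

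Colony-stimulating factors are secreted proteins that drive the growth, survival and activation of myeloid cells. Csf3 encodes the factor that drives neutrophil production and is induced in macrophages by microbial signals through NF-kB and C/EBP factors. It binds a receptor made of Csf3r chains alone. The receptor for granulocyte-macrophage colony-stimulating factor pairs the alpha chain Csf2ra, which binds the ligand, with the beta chain Csf2rb, which carries the signal to JAK2 and STAT5. Mice have an additional beta chain, Csf2rb2, which serves interleukin-3 only, while Csf2rb is shared by granulocyte-macrophage colony-stimulating factor, interleukin-3 and interleukin-5. Microglia depend on a different receptor, Csf1r, whose ligands are Csf1 and Il34.

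The beta chain genes are near-identical neighbours, so their sequences are shown first. In the mouse build GRCm38.p6, Csf2rb lies at chr15:78325800-78351001 on the plus strand and Csf2rb2 at chr15:78282507-78305721 on the minus strand. Their coding sequences in GENCODE release M21, of 2688 and 2634 bases, were identical at 2504 of 2626 aligned bases, or 95.35%. The gap-free stretch of 75 bases, the length of a read, with the most differences held 14 of them, marked in capitals. It lies in exon 5 of 15 of Csf2rb, at chr15:78338905-78338979, and in exon 4 of 14 of Csf2rb2, at chr15:78294352-78294426.
Csf2rb: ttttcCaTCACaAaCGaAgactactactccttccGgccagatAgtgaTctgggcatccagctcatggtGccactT
Csf2rb2: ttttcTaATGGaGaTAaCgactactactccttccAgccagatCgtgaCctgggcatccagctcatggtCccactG
A read from this stretch can be placed on 1 of the genes. The longest identical run, of 242 bases, lies in the last exon of each gene, at chr15:78348577-78348818 and chr15:78284630-78284871, where a read of 75 bases cannot be placed on either gene alone. It also holds an annotated miRNA locus in each gene, Mir7676-2 in Csf2rb and Mir7676-1 in Csf2rb2, of 62 bases each.
Identical run: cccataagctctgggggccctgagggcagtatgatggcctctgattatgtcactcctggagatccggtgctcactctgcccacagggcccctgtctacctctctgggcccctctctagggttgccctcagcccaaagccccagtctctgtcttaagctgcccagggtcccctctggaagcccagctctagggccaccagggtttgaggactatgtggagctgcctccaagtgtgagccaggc
Over all annotated transcripts, 518 of the 7243 distinct windows of 75 bases in Csf2rb (7.15%) also occurred in Csf2rb2, where they made up 10.6% of 4872 windows. Within the coding sequences alone the share was higher, with 413 windows in common. These were 15.8% of 2614 windows in Csf2rb and 16.1% of 2560 in Csf2rb2. Most of the length of each beta chain transcript was therefore distinct at the read length used. Csf3 and Csf2ra shared no such window with another gene, and Csf3r shared 116 of 3701 (3.13%).

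The samples held 39732710 to 69768666 counts on genes, and 3 counts in a sample corresponded to 0.0425 to 0.0756 CPM (counts scaled to library size with TMM factors over the 11 samples). Of the 12 microglia and macrophage markers listed, Itgam, Csf1r, Tyrobp, Adgre1, Cd68, Ptprc and Spi1 had at least 3649 counts in every sample. Trem2 was at a mean of 21.5 CPM in ControlA, 2.98 with nApoE4 1–151, 0.722 in ControlB and 0.521 with nApoE3 1–151, and was not called in either experiment (edgeR adjusted p = 0.0752 and 0.150). Its counts ran from 21 to 2578 over the samples. A single ControlA sample held most of the reads behind the ControlA mean, which is therefore not a level of the group. Tmem119 fell with both fragments, from 2.81 to 1.42 CPM and from 8.55 to 1.63 CPM (edgeR adjusted p = 5.95e-04 and 2.82e-09). Of the 9 markers tested with nApoE4 1–151, 2 were higher and 4 lower, and of the 10 tested with nApoE3 1–151, 5 were higher and 4 lower. Cx3cr1 had 3 to 43 counts, Aif1 had 0 to 10, and P2ry12 was at 0 throughout. The summed level of these markers was 3331 to 3642 CPM in ControlA, 3616 to 3710 with nApoE4 1–151, 2520 to 2624 in ControlB and 3126 to 3145 with nApoE3 1–151. The 12 neutrophil markers, which mark the main cell type that uses Csf3r, summed to 4.18 to 6.50 CPM over all samples, with Ly6g and Mmp8 at 0. Ctsg was the most abundant of them. Of the 5 tested with nApoE4 1–151, 2 were higher (Ctsg and Camp) and 2 lower (Prtn3 and Cebpe). Of the 4 tested with nApoE3 1–151, 1 was higher (Camp) and 1 lower (Ctsg). Astrocyte markers summed to 41.6 to 122 CPM. Most of that sum was Aldoc, which was lower with both fragments (log2 fold change -0.41 and -0.24), while Slc1a2 (2.69 and 2.05) and Slc1a3 (2.09 and 1.60) were called higher with both. Oligodendrocyte markers summed to 9.33 to 25.4 CPM, and fibroblast markers to 0.0669 to 0.390. Neuron markers summed to 1.97 to 2.56 CPM in ControlA, 5.34 to 6.41 with nApoE4 1–151 and 1.17 to 1.52 in the second experiment, and Tubb3 was the most abundant of them. The part of these genes in the results was not tested. In such bulk samples, fewer cells with a transcript and less transcript per cell cannot be told apart.

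Csf3, on chromosome 11 from 98700183 to 98703631, was close to undetected in untreated cells and was much more abundant with either fragment. ControlA held 2, 1 and 1 Csf3 reads, and the nApoE4 1–151 samples held 193, 147 and 183. ControlB held 10, 7 and 4, and the nApoE3 1–151 samples held 1511 and 1366. Every treated sample was above every untreated sample, and the groups did not overlap. The share of all genes that separate in this way was not computed. On the CPM scale the mean level was 4.22 ± 0.591 (SD, n = 3) with nApoE4 1–151 and 25.1 ± 1.25 (SD, n = 2) with nApoE3 1–151. The mean level was 0.109 ± 0.0355 (SD, n = 3) in ControlB, and all ControlA samples were under the level of 3 reads. The ratio of summed counts, scaled to library size, was 141 for nApoE4 1–151, with a 95% counting interval of 54.8 to 520, since it rests on 4 control reads. It was 226 for nApoE3 1–151, with an interval of 147 to 365.1. Both intervals are exact binomial ones and cover counting error only.

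**Figure D1:**
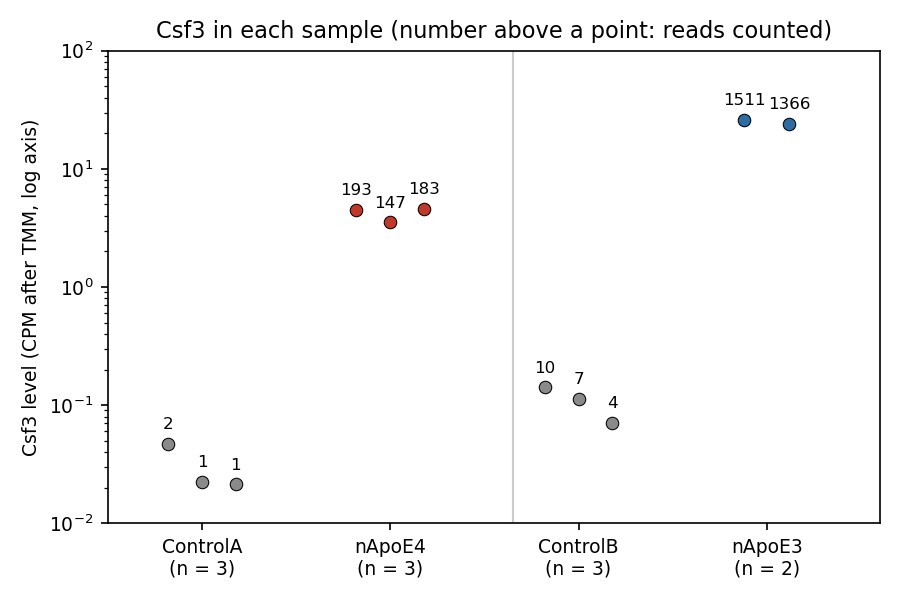
Csf3 level in each of the 11 samples on a log axis, in CPM after TMM scaling, with the number of reads above each point and a line between the experiments. The untreated samples rest on 1 to 10 reads, the nApoE4 1–151 samples on 147 to 193 and the nApoE3 1–151 samples on 1366 and 1511.

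The fitted log2 fold change of Csf3, from edgeR's quasi-likelihood model, was 7.01 with nApoE4 1–151 and 7.79 with nApoE3 1–151. The SE of this fit (0.30 and 0.12) was under that of DESeq2 (0.75 and 0.33). Its 95% confidence intervals were narrower than the counting intervals above and are not given. Among genes tested, Csf3 had the 33rd highest fold change of 14240 in the first experiment and the 6th highest of 14817 in the second. The ranks are a description and support nothing, since Csf3 was chosen with earlier results of these data known. The fitted values and the ranks depend on the prior count of the model where controls hold so few reads. No test is given for the difference between the responses of Csf3, since the gene passed the filter on low counts only through its treated samples. The level of Csf3 reached with nApoE3 1–151 was above that with nApoE4 1–151 in every sample, and ControlB was likewise above ControlA in every sample. Csf3 did not pass the filter on low counts in the comparison of the control groups and was not tested there. Part of the Csf3 annotation, 164 of its 1413 exon bases (11.6%), lies under the non-coding locus Gm38985. Gm38985 held 1 to 3 reads in ControlA and 7 to 9 with nApoE4 1–151, and 1 to 4 in ControlB and 33 and 22 with nApoE3 1–151. The strand setting of the counting is not given in the sources used here, so reads of overlapping loci cannot be told apart by strand.

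Csf3r, the receptor for the product of Csf3, fell with nApoE4 1–151 and was not called with nApoE3 1–151. The gene lies on chromosome 4 from 126023441 to 126044975, with 105 exon bases (2.91%) under the non-coding locus Gm32908. Its level was 44.3, 41.9 and 47.8 CPM in ControlA and 28.7, 34.6 and 32.1 CPM with nApoE4 1–151. Csf3r fell by 28.5% (log2 fold change -0.48, SE 0.08, edgeR adjusted p = 7.10e-04). The groups did not overlap, and the share of all genes without overlap was not computed. In the second experiment it was 31.1, 30.6 and 30.7 CPM in ControlB and 29.9 and 29.8 CPM with nApoE3 1–151. Both treated samples were below the controls by a small margin. The log2 fold change was -0.05 (SE 0.04, 95% confidence interval -0.13 to 0.02, edgeR adjusted p = 0.209). With library totals alone in place of TMM factors, an alternative chosen after seeing the data, this value was -0.18 (edgeR adjusted p = 5.58e-04). An interaction term in a fit of all 11 samples gave the difference between the responses, nApoE4 1–151 minus nApoE3 1–151, which was -0.44 for Csf3r (SE 0.10, edgeR adjusted p = 0.00450). Relative to ControlA, ControlB was lower, at -31.8% (log2 fold change -0.55, SE 0.06, edgeR adjusted p = 5.11e-05). The range of the nApoE4 1–151 samples included those of ControlB and of nApoE3 1–151, and ControlA stood above all of them.

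Csf2ra, the alpha chain that binds granulocyte-macrophage colony-stimulating factor, rose with both fragments. The gene lies on chromosome 19 from 61217191 to 61228461. Its level was 121, 134 and 134 CPM in ControlA and 169, 191 and 170 CPM with nApoE4 1–151. In the second experiment it was 64.8, 61.9 and 64.8 CPM in ControlB and 89.4 and 90.6 CPM with nApoE3 1–151. Treated samples were above the controls of their experiment in 5 of 5 cases, and the share of all genes that separate so was not computed. The rise was 36.6% with nApoE4 1–151 (log2 fold change 0.45, SE 0.07, edgeR adjusted p = 4.83e-04). It was 40.3% with nApoE3 1–151 (log2 fold change 0.49, SE 0.03, edgeR adjusted p = 2.42e-08). The difference between the responses was -0.05 (SE 0.09, edgeR adjusted p = 0.711), with an interval of -0.24 to 0.14. The interval leaves room for responses that differ by that much in either direction. All 4 groups were separate in level, in the order nApoE4 1–151, ControlA, nApoE3 1–151 and ControlB from the highest.

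Csf2rb, the signalling beta chain, moved in opposite directions in the experiments. Its level was 375, 342 and 388 CPM in ControlA and 220, 222 and 207 CPM with nApoE4 1–151, where it fell by 41.0%. It was 147, 143 and 142 CPM in ControlB and 179 and 183 CPM with nApoE3 1–151, a rise of 25.0%. Neither pair of groups overlapped, which was not set against the share of all genes without overlap. The log2 fold change was -0.76 with nApoE4 1–151 (SE 0.07, edgeR adjusted p = 1.06e-05) and 0.32 with nApoE3 1–151 (SE 0.03, edgeR adjusted p = 2.26e-07). The responses differed by -1.09 (SE 0.08, edgeR adjusted p = 5.48e-07).

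Csf2rb2, the beta chain that serves interleukin-3, followed the same pattern. Its level was 231, 215 and 256 CPM in ControlA and 155, 165 and 148 CPM with nApoE4 1–151, where it fell by 33.0%. It was 88.6, 86.5 and 87.5 CPM in ControlB and 115 and 121 CPM with nApoE3 1–151, a rise of 33.9%. Neither pair of groups overlapped here either, again without the share of all genes to set it against. The log2 fold change was -0.58 with nApoE4 1–151 (SE 0.08, edgeR adjusted p = 1.63e-04) and 0.42 with nApoE3 1–151 (SE 0.03, edgeR adjusted p = 6.38e-08). The responses differed by -1.01 (SE 0.09, edgeR adjusted p = 4.74e-06). With the reads of both beta chains summed into 1 row, the log2 fold change was -0.69 and 0.36. Reads that map to both genes are not in either count, so summing does not restore them.

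**Figure D2:**
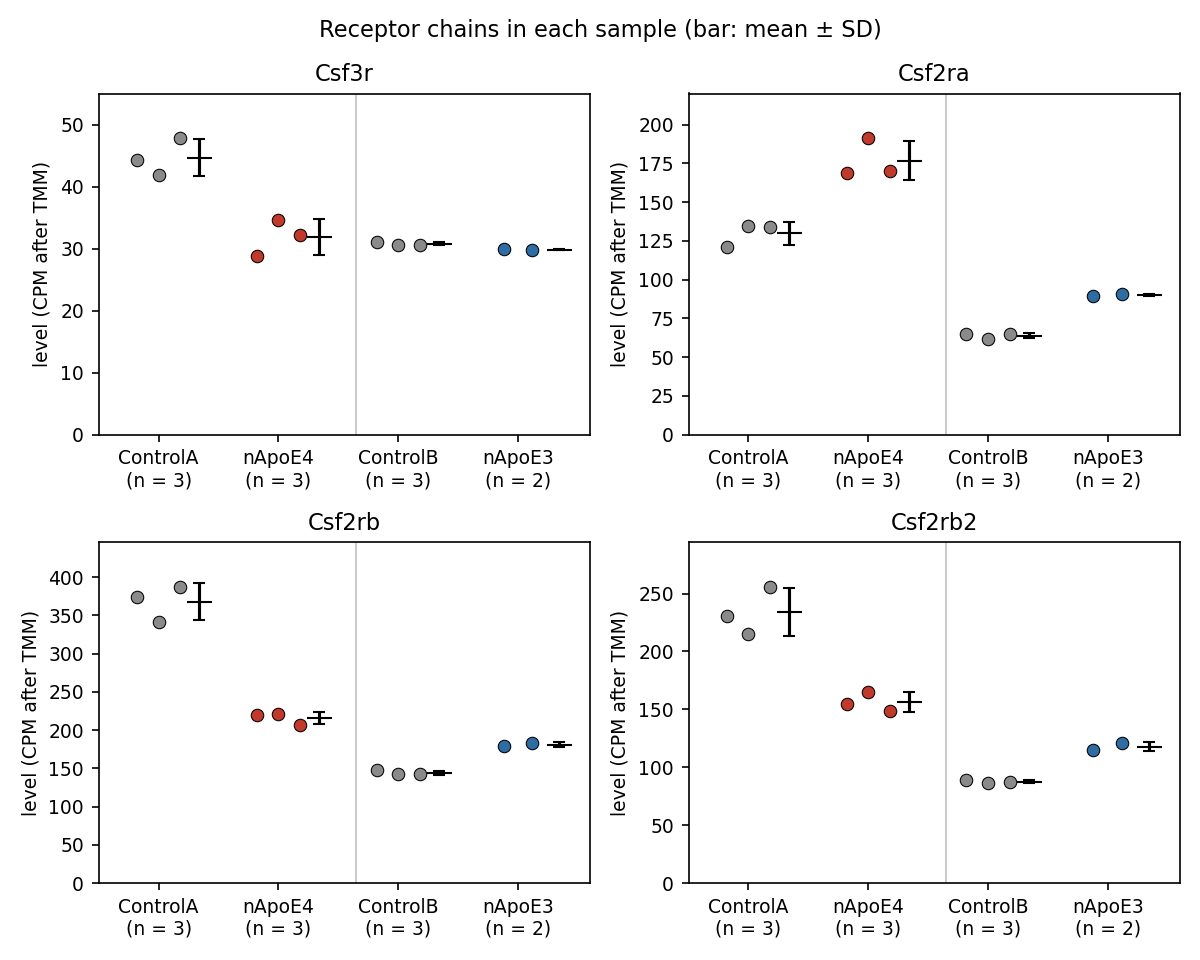
Level of each receptor chain in each sample, in CPM after TMM scaling on an axis from 0, with the mean ± SD of the group beside the points. Csf2ra is higher in treated samples in both experiments, the beta chains Csf2rb and Csf2rb2 are lower with nApoE4 1–151 and higher with nApoE3 1–151, and ControlA is above ControlB for all 4 chains.

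The untreated cells of the experiments differed in the same chains. Relative to ControlA, ControlB stood at -51.4% for Csf2ra (log2 fold change -1.04, SE 0.05, edgeR adjusted p = 1.42e-06). It stood at -61.3% for Csf2rb (log2 fold change -1.37, SE 0.06, edgeR adjusted p = 7.29e-07) and at -63.0% for Csf2rb2 (log2 fold change -1.43, SE 0.07, edgeR adjusted p = 1.11e-06). All 4 receptor chains were called between the control groups, where 69.3% of the 14249 genes tested were called. For both beta chains the order of the groups, from the highest, was ControlA, nApoE4 1–151, nApoE3 1–151 and ControlB, with no overlap. Mean Csf2rb was 216 CPM with nApoE4 1–151 and 181 CPM with nApoE3 1–151, which are closer to each other than the control means of 367.97 and 144 CPM. The opposite responses of the beta chains thus stand beside unlike starting levels, and their part in the difference was not tested.

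Against their own controls, all 4 receptor chains were called with nApoE4 1–151, 1 higher and 3 lower, where 57.2% of the 14240 genes tested were called. With nApoE3 1–151, 3 of 4 were called, all higher, where 67.7% of 14817 genes were called. The difference between the responses was called for 3 of 4 chains, Csf3r, Csf2rb and Csf2rb2, where 28.3% of 15287 genes were called. With so many genes called, a call alone does not set a chain apart from the other genes tested. Groups without overlap do not set a chain apart either, since the share of all genes without overlap was not computed. All 5 genes passed the filter on low counts in both experiments, Csf3 through its treated samples.

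**Figure D3:**
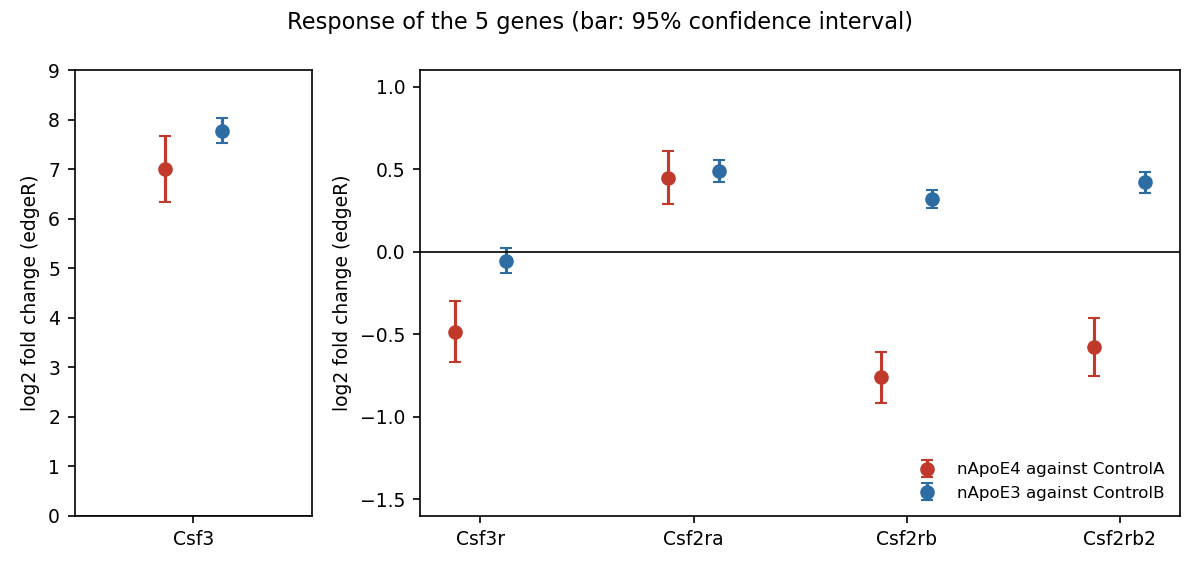
Log2 fold change of each of the 5 genes against the untreated samples of the same experiment, from edgeR, with 95% confidence intervals as bars, and Csf3 on an axis of its own. The bars of Csf3 are narrower than its counting intervals and do not measure its uncertainty. Csf3 was 7.01 and 7.79, the values of Csf2ra overlap at 0.45 and 0.49, and those of Csf2rb and Csf2rb2 lie on opposite sides of 0.

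The balance of the chains was taken from the counts of each sample. Csf2rb2 made up 38.1%, 38.6% and 39.8% of the reads on the beta chain pair in ControlA and 41.3%, 42.7% and 41.7% with nApoE4 1–151. It made up 37.6%, 37.7% and 38.1% in ControlB and 39.1% and 39.7% with nApoE3 1–151. The share was higher in every treated sample than in the controls of its experiment, by 3.05 percentage points with nApoE4 1–151 and 1.62 with nApoE3 1–151. The two-sided exact permutation p was 0.1 in each experiment, the smallest that these sample numbers allow. Exact binomial 95% intervals of single samples spanned 37.6 to 38.7% for the lowest ControlA sample and 41.9 to 43.5% for the highest nApoE4 1–151 sample, for counting error only.

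The number of Csf2ra reads per 100 reads on the beta chains was 20.04, 24.2 and 20.8 in ControlA and 44.9, 49.5 and 47.9 with nApoE4 1–151. It was 27.5, 26.98 and 28.2 in ControlB and 30.4 and 29.8 with nApoE3 1–151. These ratios are of read numbers and were not divided by transcript length. They were higher in treated samples in both experiments, with a wide gap with nApoE4 1–151, where Csf2ra rose as the beta chains fell, and a narrow one with nApoE3 1–151, where all 3 chains rose.

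**Figure D4:**
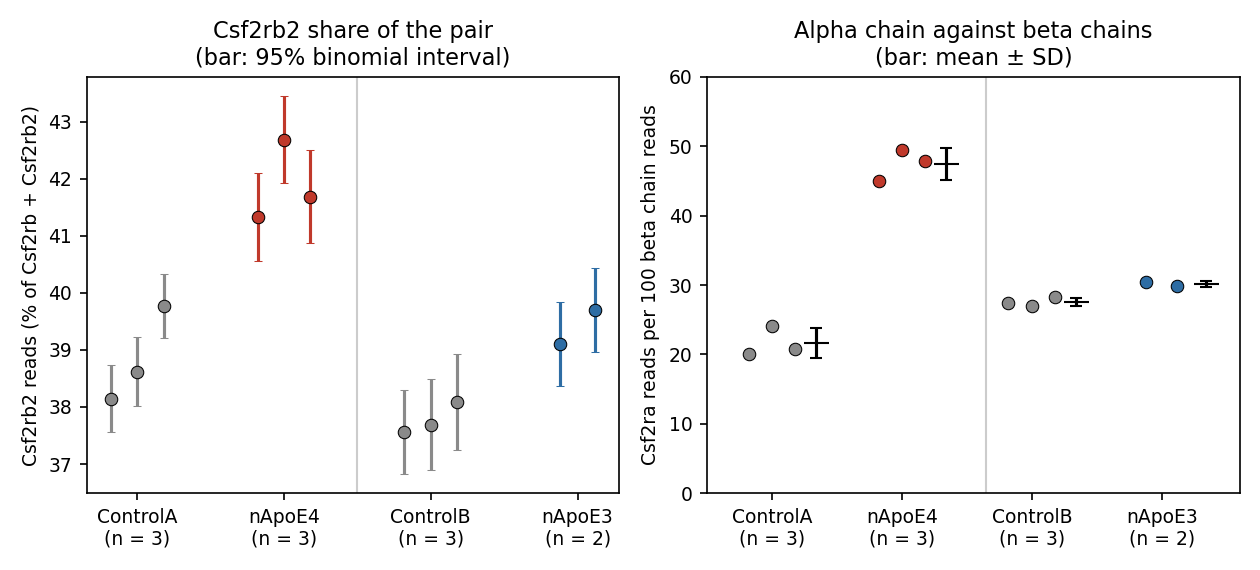
Left, reads on Csf2rb2 as a percentage of reads on both beta chains in each sample, with exact binomial 95% intervals as bars and an axis that starts above 0. Right, reads on Csf2ra per 100 reads on the beta chains, with the mean ± SD of the group, which lie between 20.04 and 24.2 in ControlA, 44.9 and 49.5 with nApoE4 1–151, 26.98 and 28.2 in ControlB and 29.8 and 30.4 with nApoE3 1–151.

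To compare levels between genes, CPM was divided by the length of the longest protein-coding transcript in GENCODE. In ControlA the mean level per kb was 75.1 ± 4.87 for Csf2rb, 70.2 ± 3.98 for Csf2ra, 49.4 ± 4.38 for Csf2rb2 and 12.8 ± 0.865 for Csf3r (SD, n = 3). Csf2rb and Csf2ra did not differ beyond their spread. With nApoE4 1–151, Csf2ra was the highest at 95.6 ± 6.87 CPM per kb, above Csf2rb at 44.2 ± 1.61 and Csf2rb2 at 32.9 ± 1.79 (SD, n = 3). Csf3r was at 8.57 ± 0.00898 CPM per kb with nApoE3 1–151, where Csf3 itself reached 17.7 ± 0.888 (SD, n = 2). With nApoE4 1–151, Csf3 stood at 2.98 ± 0.418 CPM per kb against 9.14 ± 0.840 for Csf3r (SD, n = 3). The transcript of the ligand was thus above that of its receptor with nApoE3 1–151 and below it with nApoE4 1–151. With the union of all exons as the length, Csf2rb, Csf2rb2 and Csf2ra were at 50.6, 49.4 and 45.2 CPM per kb in ControlA, so their order depends on the gene model, and the span of Csf2ra differs between RefSeq and GENCODE. Csf3r was below the other 3 chains in every group under both lengths.

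The other ligands and chains of the family, taken from a list of 6 ligands and 7 chains, were then read. Csf1r, the receptor that sustains microglia, was at 776 to 814 CPM in ControlA and 676 to 743 with nApoE4 1–151 (log2 fold change -0.15, SE 0.07, edgeR adjusted p = 0.0802). It was at 755 to 787 CPM in ControlB and 694 to 703 with nApoE3 1–151 (log2 fold change -0.15, SE 0.02, edgeR adjusted p = 4.82e-05). The estimates were close, while the spread between samples was smaller in the second experiment. Il3ra, the alpha chain of the interleukin-3 receptor, rose with nApoE4 1–151 from 3.25 to 5.10 CPM (log2 fold change 0.65, SE 0.15, edgeR adjusted p = 0.00365). It rose with nApoE3 1–151 from 0.774 to 1.12 CPM (log2 fold change 0.52, SE 0.19, edgeR adjusted p = 0.0318). Csf2ra and Il3ra, the only alpha chains of the family that could be tested, were called higher in both experiments. Of all genes tested, 28.6% were called higher with nApoE4 1–151 and 33.1% with nApoE3 1–151. Il5ra, the alpha chain for interleukin-5, held at most 3 reads in any sample and was not tested. Il34 was not called, at 0.08 (SE 0.23, edgeR adjusted p = 0.797) and 0.05 (SE 0.35, edgeR adjusted p = 0.905), and Il5 held at most 5 reads.

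Csf1, Csf2 and Il3 were listed at 0 in all 11 samples. In the RefSeq annotation of GRCm38.p6 each lies wholly inside the span of a non-coding locus, Csf1 (chromosome 3, 107741048 to 107760469) inside Gm40121 (107696225 to 107812951), Csf2 inside Gm12223 and Il3 inside LOC115487722. P2ry12 lies in the same way inside Med12l. Of 820 protein-coding genes placed wholly inside another locus, 757 (92.3%) were at 0 in all samples, against 2441 of 12194 (20.02%) that overlapped no other locus and 233 of 7429 (3.14%) that overlapped one in part. A listed 0 of these genes was therefore not read as absence of the transcript. The locus that holds Csf1, Gm40121, had 28, 16 and 24 reads in ControlA and 88, 114 and 96 with nApoE4 1–151 (log2 fold change 2.24, SE 0.24, edgeR adjusted p = 3.38e-05). It had 34, 26 and 20 reads in ControlB and 113 and 136 with nApoE3 1–151 (log2 fold change 2.35, SE 0.20, edgeR adjusted p = 4.69e-07). Gm12223, which holds Csf2, had at most 2 reads in untreated samples, at most 1 with nApoE4 1–151, and 7 and 4 with nApoE3 1–151. Reads on Gm40121 and Gm12223 were not taken as levels of Csf1 or Csf2.

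The members of the lists below are read against all genes tested, of which 28.6% were called higher and 28.6% lower with nApoE4 1–151 (57.2% in all), and 33.1% higher and 34.6% lower with nApoE3 1–151 (67.7% in all). All of these lists were chosen with earlier results of these data known, so their counts are a description. Downstream of these receptors, kinases, adaptors and STAT factors moved in both directions. Of 21 listed, 10 were higher, 7 lower and 4 not called with nApoE4 1–151, with a median log2 fold change of 0.24. With nApoE3 1–151, 11 were higher, 9 lower and 1 not called, with a median of 0.07. The median over all genes tested was 0.00 in each experiment. Jak2, the kinase bound to the beta chain and to Csf3r, rose from 25.8 to 114 CPM with nApoE4 1–151 (log2 fold change 2.15, SE 0.06, edgeR adjusted p = 2.43e-09). It rose from 42.6 to 140 CPM with nApoE3 1–151 (log2 fold change 1.71, SE 0.03, edgeR adjusted p = 1.12e-13). The tyrosine kinase Syk rose as well, by 1.74 and 1.59 on the log2 scale, with edgeR adjusted p of at most 3.90e-08. Stat5a, a main STAT factor of the beta chain receptors, was called in opposite directions. It was higher with nApoE4 1–151 (log2 fold change 0.44, SE 0.07, edgeR adjusted p = 2.92e-04) and lower with nApoE3 1–151 (log2 fold change -0.59, SE 0.05, edgeR adjusted p = 4.08e-07). Stat5a is named because the naming rule takes genes called in opposite directions, so no link to the beta chains is read from its directions.

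Of 10 negative regulators, 3 were higher, 2 lower and 5 not called with nApoE4 1–151, and 4 were higher, 5 lower and 1 not called with nApoE3 1–151. The medians were 0.12 and -0.14. With nApoE4 1–151 this is a smaller share called than the 57.2% of all genes, and nothing particular to the list is read from it. The 3 that rose with both fragments by the largest amounts were Socs1, Socs3 and Cish, feedback inhibitors of JAK and STAT signalling. Socs3, which binds Csf3r, rose from 13.6 to 104 CPM with nApoE4 1–151 (log2 fold change 2.94, SE 0.08, edgeR adjusted p = 2.03e-09). It rose from 13.2 to 70.4 CPM with nApoE3 1–151 (log2 fold change 2.41, SE 0.06, edgeR adjusted p = 1.83e-12). Socs1 rose by 3.35 and 3.05 and Cish by 2.67 and 2.14 on the log2 scale, with edgeR adjusted p of at most 5.72e-07.

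Of 12 target genes of STAT5 and STAT3, a list that shares Cish with the one above, 8 were higher, 2 lower and 2 not called with nApoE4 1–151. With nApoE3 1–151, 8 were higher, 3 lower and 1 not called. Of all genes tested, 28.6% and 33.1% were called higher in the 2 experiments. The medians were 1.05 and 0.92. Since the list was chosen with earlier results known, nothing is read from these counts. Myc, a growth regulator, rose from 0.708 to 8.75 CPM with nApoE4 1–151 (log2 fold change 3.63, SE 0.14) and from 0.409 to 4.66 CPM with nApoE3 1–151 (log2 fold change 3.51, SE 0.18). Pim1, a survival kinase, rose by 3.15 (SE 0.06) and 2.67 (SE 0.04), and the edgeR adjusted p of both genes was at most 3.28e-08. These genes are also targets of other cytokine receptors.

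Of 13 regulators of the Csf3 transcript, which are transcription factors and mRNA decay factors, 10 were higher, 2 lower and 1 not called with nApoE4 1–151. With nApoE3 1–151, 12 were higher and 1 lower, beside the 28.6% and 33.1% of all genes called higher. The medians were 1.13 and 1.13. The list was chosen with earlier results known and mixes transcription factors with mRNA decay factors. Its counts and medians therefore support nothing about Csf3. Nfkbiz, an NF-kB cofactor, rose from 23.0 to 371 CPM with nApoE4 1–151 (log2 fold change 4.02, SE 0.08, edgeR adjusted p = 5.90e-10). It rose from 16.8 to 227 CPM with nApoE3 1–151 (log2 fold change 3.75, SE 0.04, edgeR adjusted p = 2.47e-15). Cebpd, a C/EBP factor, rose by 2.94 and 2.66, and Zc3h12a, a nuclease that degrades cytokine transcripts, by 1.99 and 2.61, with edgeR adjusted p of at most 3.47e-08. Jun, a subunit of AP-1, was lower with nApoE4 1–151 (log2 fold change -0.89, SE 0.05, edgeR adjusted p = 6.26e-07) and higher with nApoE3 1–151 (log2 fold change 0.71, SE 0.03, edgeR adjusted p = 1.62e-09). Jun, too, is named by the rule for genes called in opposite directions, so sharing the directions of the beta chains supports nothing.

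**Figure D5:**
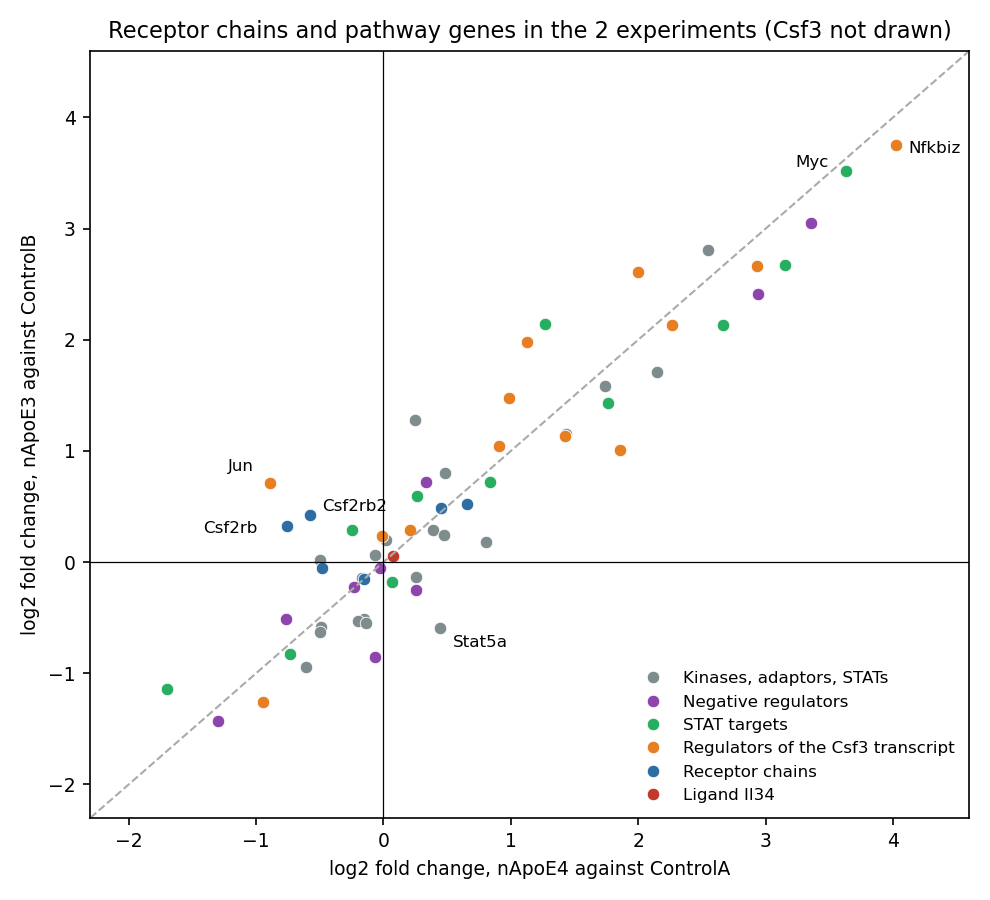
Log2 fold change with nApoE4 1–151 (x) against that with nApoE3 1–151 (y) for receptor chains, Il34 and the genes of the 4 pathway lists that were tested in both experiments, with equal responses on the dashed line and Csf3 left off. Csf2rb, Csf2rb2 and Jun lie at upper left (lower with nApoE4 1–151, higher with nApoE3 1–151), Stat5a at lower right, and Myc and Nfkbiz at upper right.

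The genes with the most similar pattern to each of the 5 were found among 15287 genes, by the root mean square difference of log2 CPM over the 11 samples, centred on the controls of each experiment. For Csf3 these were Nos2, the inducible nitric oxide synthase, at 0.34, then Rsad2 at 0.55, Cmpk2 at 0.55, Vcam1 at 0.57 and Ifi44 at 0.62, where the median gene was at 4.45. On this scale Nos2 was 6.03 above its controls with nApoE4 1–151 and 7.85 with nApoE3 1–151, and Csf3 was 5.95 and 7.44 above. The scale uses a prior count of 2, which lowers the rise of genes with few control reads. The values of Csf3 are thus below its fitted 7.01 and 7.79, more so with nApoE4 1–151. For Csf2rb the nearest were Galnt6, Smox, Tnfrsf23, Atg4c and Dpys, at 0.07 to 0.09, where the median gene was at 0.53. For Csf2rb2 they were Scn8a, Fosl2, Slc6a8, Stra6l and Galnt6, at 0.06 to 0.08, where the median gene was at 0.49. Galnt6 was the gene found for both beta chains. For Csf2ra they were Trmt1l, Arap1, Prkx, Armc8 and Rab22a, at 0.04 to 0.06, and for Csf3r they were Tirap, 2700097O09Rik, Cmip, Itpk1 and Bach1, at 0.05. These distances share the libraries and are a description with no test.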

How the data were processed

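RNA-seq of 11 BV2 samples was used. The authors trimmed single-end reads of 75 bases with Trim Galore 0.5.0, checked them with FastQC 0.11.8, mapped them to GRCm38.p6 with HISAT2 2.1.0 and deposited raw counts per gene from HTSeq 0.11.0. The annotation release, strand setting and overlap mode are not given in the sources used here. The 5 HTSeq tally rows, which held 22.3 to 24.0% of tallied reads, were left out.

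Counts were analysed in R 4.3.3 with edgeR 4.0.16 (filterByExpr with a minimum count of 10, TMM, quasi-likelihood F test, Benjamini-Hochberg adjustment over all genes tested, calls at an adjusted p under 0.05). Tests set each treated group against the untreated samples of its experiment, the responses against each other (an interaction term over 11 samples), and ControlB against ControlA. The SE was derived from the log2 fold change and the F statistic. Levels are CPM with TMM factors over the 11 samples. Replicate pairs differed by more than sampling noise, so each sample counted once. Samples of the same replicate number did not deviate together (correlations of -0.17 to -0.01), so no block was used. The pipeline was tested on simulated data. Alternatives were DESeq2 1.42.0, its size factors, filters of 1 and 10 counts, summed beta chain rows, leaving out each replicate, all 11 samples in 1 fit and the block, and, chosen after seeing the data, library totals alone.

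The 5 genes and all lists were chosen with earlier results of these data known. From each pathway list, at most 3 genes called in the same direction with both fragments (those with the largest mean change) and at most 3 called in opposite directions were named, with all members of the ligand and receptor lists, and the 5 genes nearest in pattern to each of the 5. A gene that this rule names is not reported here. Positions and overlaps come from RefSeq, and transcripts, coding sequences and lengths from GENCODE M21, with sequences aligned in Biopython 1.88.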

Additional observations from a re-analysis of the deposited data

Results flagged for a closer look

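The interaction test in edgeR called 28.3% of 15287 genes tested, and 11 of the 21 named genes that were tested. The 21 include Csf3, whose result is not read, since it passed the filter on low counts only through its treated samples. The differences are given as log2 values, nApoE4 1–151 minus nApoE3 1–151. Csf2rb (-1.09), Csf2rb2 (-1.01) and Jun (-1.61) were lower with nApoE4 1–151 and higher with nApoE3 1–151, and Stat5a (1.03) was higher and then lower. The naming rule takes genes called in opposite directions, so a difference in these 4 was fixed by the choice and the count supports nothing. Csf3r (-0.44) was called lower with nApoE4 1–151 and was not called with nApoE3 1–151 under TMM scaling. Zc3h12a (-0.62) rose less with nApoE4 1–151 than with nApoE3 1–151, and Socs3 (0.52), Cish (0.52), Pim1 (0.47), Jak2 (0.43) and Nfkbiz (0.26) rose more. Effects of fragment and of experiment cannot be told apart here.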

How the results depend on the processing

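Over all alternatives, Csf3r, Csf2ra, Csf2rb and Csf2rb2 kept their direction and their call in each comparison where they were called. Csf1r and Il3ra were not run under the alternatives. One value crossed the threshold the other way: with library totals alone, which moved the median of all genes by -0.13 in the second experiment, Csf3r with nApoE3 1–151 was -0.18 (edgeR adjusted p = 5.58e-04). There Csf2rb with nApoE3 1–151 was 0.19 in place of 0.32, a move of over 1.5 times, and still called. Csf2ra was not called in the interaction under any alternative, with values of -0.10 to 0.00. With replicate number as a block, 2307 genes were called in the interaction in place of 4331. Csf3r, Csf2rb and Csf2rb2 kept their calls there. Csf3r was then close to the threshold, at -0.44 (edgeR adjusted p = 0.0470). The labels do not say whether the numbers pair the samples. With Csf2rb and Csf2rb2 summed, the pair was at -0.69 with nApoE4 1–151 and 0.36 with nApoE3 1–151.

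Leaving out each replicate in turn gave 7142 to 8827 genes called with nApoE4 1–151, 9121 to 9837 with nApoE3 1–151, 3040 to 5250 in the interaction and 8949 to 10988 between controls. Csf3 was then 6.82 to 7.41 and 7.58 to 8.03. With 2 nApoE3 1–151 samples, leaving one out leaves a lone sample assumed to vary like the controls. Depth limits Csf3 in untreated cells, at 1 to 10 reads.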
